A study of Homo sapiens with 22 samples.

Results

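SK-N-AS cells, an established human neuroblastoma line, were compared between untreated culture and the opening stage of a differentiation treatment, before bufalin was added. The comparison was chosen by its labels and took in 8 of the 22 libraries of the series, 4 from untreated cells and 4 from stage 1. Untreated cells (Naive in the labels) were kept in DMEM with 10% fetal bovine serum and received neither compound. Stage 1 cells (S1D4) had 4 days of 5 µM PP121 in DMEM with 1% serum and no bufalin. Both groups are the same line of human tumour cells with no engineered allele, and both media held antibiotics and a glutamine supplement. PP121, the lower serum and the 4 days changed together, so their contributions cannot be told apart. The question was which genes had changed at this early stage.

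PP121 is a small molecule that inhibits tyrosine kinases, such as VEGF and PDGF receptors, ABL and the SRC family, and lipid kinases of the PI3K family together with mTOR. Growth factors in serum act through these kinases, and their signals reach genes by 2 well-known routes. PI3K and AKT keep FOXO transcription factors out of the nucleus, while RAS and ERK induce immediate early genes and then the DUSP and Sprouty proteins that restrain ERK. Neuroblastoma arises in the sympathetic lineage, whose cells make catecholamines, store them in dense-core granules and are commonly placed between adrenergic and mesenchymal states.

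Total RNA was sequenced, and the deposited table gives 1 count per gene and library. Total counts were 19145000 to 37506800 in untreated cells and 19056618 to 22376636 in S1D4. Levels are given as CPM, the usual count scaled by library total, here on TMM-scaled library sizes, as mean ± SD of 4 libraries, or for each library in the order of replicates 1 to 4. Changes are log2 fold changes of S1D4 over untreated cells ± SE, with Benjamini-Hochberg adjusted p-values from edgeR and a threshold of 0.05. The labels do not say that replicates were separate cultures, so p-values measure the spread between libraries, which may be technical. Unless stated otherwise, that spread and the SE came from all 16 SK-N-AS libraries, the later stages included. In bulk RNA, fewer cells of a kind and less RNA per cell cannot be told apart. Mitochondrial genes took 5.47% to 12.4% of counts in untreated cells and 5.90% to 8.38% in S1D4.

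The replicates of S1D4 fell into 2 pairs. Replicates 1 and 2 correlated at 0.9892 (Pearson, log2 CPM across genes) and replicates 3 and 4 at 0.9893, while libraries of different pairs correlated at 0.9792 to 0.9811. In untreated cells the split was less regular. Replicates 1 and 2 correlated at 0.9897, but replicate 3 was closer to them (0.9863 and 0.9839) than to replicate 4 (0.9801), and replicate 4 stood apart from replicates 1 and 2 (0.9741 and 0.9769). Changes within replicates 1,2 and within replicates 3,4 are therefore given beside the results they touch. The labels name no batch for these pairs.

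The labels call the line mesenchymal, and its libraries held both kinds of marker. Summed over 10 mesenchymal markers the level was 1010 to 1600 CPM in untreated cells and 1390 to 1620 CPM in S1D4. Most of this was VIM, at 671 to 1280 and 1070 to 1310 CPM. Of the 10, 4 were lower and 2 higher in S1D4 (median log2 fold change -0.36). The 10 adrenergic markers summed to 4980 to 10800 CPM and 5500 to 8060 CPM, mostly CHGA (3180 to 8650 and 4060 to 6360 CPM). Of these 10, 4 were lower and 1 higher in S1D4 (median log2 fold change -0.49). Among the adrenergic markers, HAND2, a transcription factor of the sympathetic lineage, was at 612 ± 22.4 and 646 ± 63.2 CPM. This adrenergic regulator was thus present in both groups. Markers of other cell types were low. The 8 Schwann and glial markers summed to 2.60 to 3.97 CPM in untreated cells and 7.52 to 10.3 CPM in S1D4, 6 endothelial markers to 6.17 to 12.6 and 3.12 to 5.93 CPM, and 6 epithelial markers to 0.407 to 1.17 and 0.931 to 2.77 CPM. The 8 leukocyte markers summed to 182 to 224 CPM and 82.0 to 102 CPM. Most of this was PTPRC (CD45, a receptor phosphatase of blood cells), which fell from 187 ± 19.3 to 59.3 ± 8.28 CPM, while CD68, a lysosomal glycoprotein of macrophages, rose from 14.04 ± 5.01 to 30.7 ± 2.46 CPM. CD3E of T cells had no count in any of the 8 libraries, and LYZ of myeloid cells had at most 6 counts in a library.

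Of 15810 genes tested, 2786 were higher (17.6%) and 3546 lower (22.4%) in S1D4, which is 40.1% in all. A change of at least 2-fold was found for 953 of the higher and 989 of the lower genes. The 4 S1D4 libraries lay wholly above or below the 4 untreated ones for 5998 genes (37.9%). The median log2 fold change of all genes tested was -0.01. Within replicates 1,2 alone 43.7% of genes were called, and within replicates 3,4 alone 22.9%, each from 4 libraries. Counts of list members below are to be read against the 17.6% and 22.4% of all genes.

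**Figure D1:**
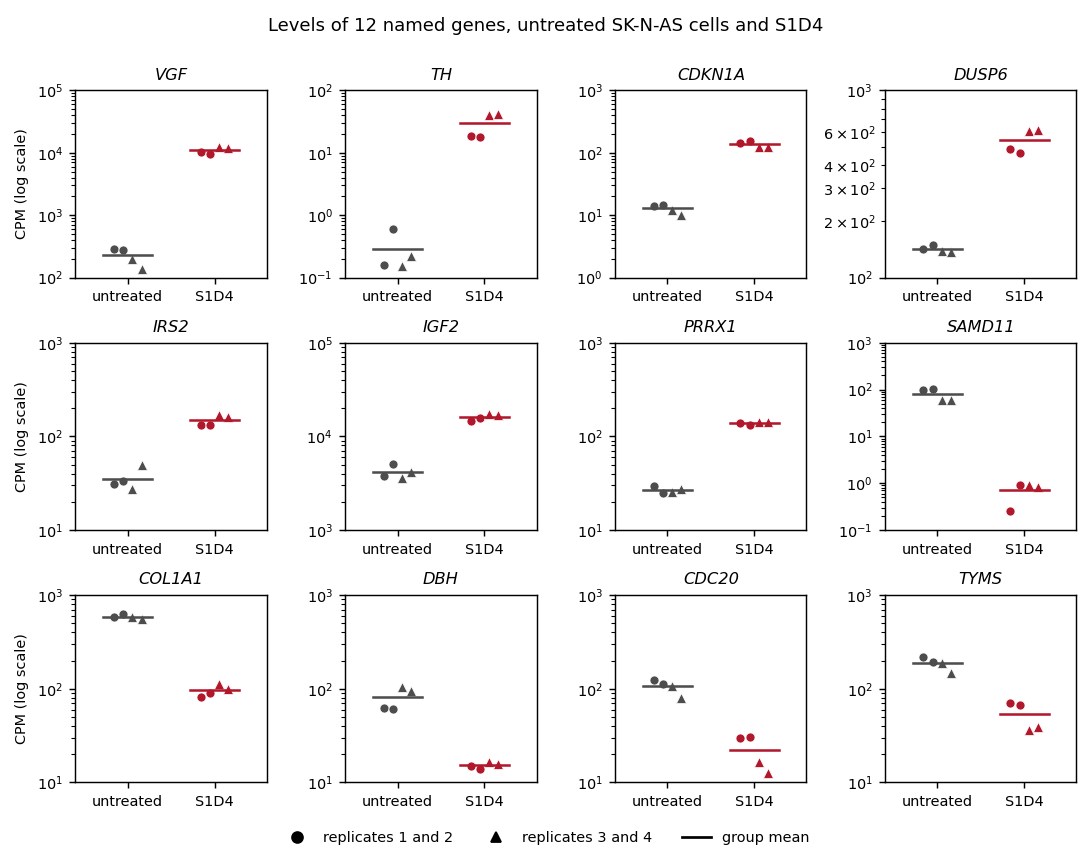
Levels of 12 named genes in the 8 libraries, in CPM on a log axis, with 1 panel per gene. Circles are replicates 1 and 2, triangles replicates 3 and 4, and bars are group means. In each panel the untreated and S1D4 libraries do not overlap, with VGF at 136 to 289.8 CPM in untreated cells and 9493 to 12471 CPM in S1D4.

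The largest rises joined secretory and cytokine genes. VGF, the precursor of peptides released from dense-core granules, was at 289.8, 283, 199 and 136 CPM in the 4 untreated libraries. In the S1D4 libraries it reached 10330.000, 9493, 12471 and 12145 CPM (log2 fold change 5.61 ± 0.23, adjusted p 9.88e-11). All 4 values lay far above the untreated ones, and VGF alone took 1.02% to 1.35% of all counts in S1D4 against 0.0149% to 0.0293% before. TH, tyrosine hydroxylase, the rate-limiting enzyme of catecholamine synthesis, was at 0.158, 0.607, 0.153 and 0.221 CPM before and 18.9, 17.9, 41.1 and 41.2 CPM in S1D4 (log2 fold change 6.77 ± 1.12, adjusted p 0.000168). All 4 S1D4 values were above the untreated ones, and replicates 3 and 4 were the higher pair. ECEL1, a neuronal endopeptidase related to endothelin-converting enzyme, rose from 1.16 ± 0.292 to 113 ± 33.2 CPM (log2 fold change 6.61 ± 0.34, adjusted p 1.66e-09).

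PAEP, a secreted lipocalin also called glycodelin, rose from 4.85 ± 3.11 to 226 ± 48.2 CPM, a log2 fold change of 5.53 ± 0.38. MPP4, a scaffold protein of the photoreceptor synapse, rose from 0.846 ± 0.525 to 37.4 ± 4.26 CPM and NAT16, an acetyltransferase, from 0.257 ± 0.192 to 10.9 ± 1.93 CPM. The remaining large rises were PRG2, the major basic protein of eosinophil granules (from 0.329 ± 0.28 to 37.7 ± 5.27 CPM), FER1L6, a ferlin (from 0.637 ± 0.125 to 25.7 ± 17.1 CPM), and ANO9, an anoctamin (from 2.05 ± 0.751 to 73.4 ± 59.6 CPM). ANO9 was uneven between replicates, at 86.2, 152, 26.6 and 28.2 CPM in S1D4. The other 3 of the 12 largest rises were the cytokine genes LTB, CXCL8 and IL1B, described below.

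The promoter of VGF is shown for the cyclic AMP response element (CRE, TGACGTCA), the motif searched for in the granule list. Among granule genes with a promoter entry and a CRE match, VGF had the largest rise. RefSeq places the 150 bases before its start on GRCh38.p14 at chr7:101165570-101165719, minus strand, and the capitals mark the CRE, whose first base lies 79 bases before the start.
VGF: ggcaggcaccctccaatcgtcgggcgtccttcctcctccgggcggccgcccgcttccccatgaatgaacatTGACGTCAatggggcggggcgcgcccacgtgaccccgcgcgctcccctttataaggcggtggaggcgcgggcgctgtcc
An exact CRE on either strand was present in 3.12% of the 11247 promoters of tested genes (250 bases before to 50 after the start). The share was 3.56% among genes called higher and 2.96% among those higher by at least 2-fold, near that of all. The motif was present in 4 of the 14 granule and catecholamine genes with a promoter entry. These 4 were VGF, PCSK1, SLC18A2 and CHGA, of which CHGA did not pass the test of change. TH, which rose more than VGF, had no promoter entry and was not searched. A match is a description of the letters and no measure of binding.

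The largest falls were of genes of diverse kinds. SAMD11, a sterile alpha motif protein, was at 96.3, 101, 60.3 and 59.9 CPM in untreated cells and 0.25, 0.931, 0.922 and 0.831 CPM in S1D4 (log2 fold change -6.76 ± 0.38, adjusted p 3.67e-09). THY1, a surface glycoprotein of neurons and fibroblasts, fell from 87.4 ± 19.5 to 7.91 ± 0.284 CPM, and its 4 S1D4 values lay within a narrow band of 8.1, 7.55, 7.81 and 8.17 CPM. GFRA2, the co-receptor for neurturin, fell from 46.4 ± 6.98 to 4.21 ± 0.613 CPM (log2 fold change -3.46 ± 0.53, adjusted p 7.74e-05). ATOH8, a basic helix-loop-helix factor, fell from 101 ± 28.1 to 10.2 ± 1.51 CPM.

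CP (ceruloplasmin, a copper-carrying ferroxidase) fell from 21.5 ± 10.7 to 0.919 ± 0.469 CPM and TM4SF4, a tetraspan membrane protein, from 28.6 ± 11.9 to 2.12 ± 1.16 CPM. CNTNAP2, which clusters potassium channels on axons, fell from 20.96 ± 2.78 to 2.36 ± 0.407 CPM. The others among the 12 largest falls were CCDC3 (a log2 fold change of -3.86), RASL11B (-3.57), PALMD (-3.51), LRRC17 (-3.37) and CD96 (-3.27).

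Genes of the cell cycle fell as whole groups. All 28 DNA replication genes and all 30 genes of mitosis and the spindle were lower, against 22.4% of all genes, and all 58 were also lower within each replicate pair alone. The median log2 fold changes were -1.20 for replication and -1.70 for mitosis. CDC20, which activates the anaphase-promoting complex, was at 125, 111, 108 and 79.6 CPM in untreated cells and 29.96, 30.8, 16.3 and 12.5 CPM in S1D4 (log2 fold change -2.24 ± 0.24, adjusted p 2.66e-06). All untreated values exceeded all S1D4 values. KIF20A, a kinesin of cytokinesis, fell from 84.5 ± 9.77 to 18.2 ± 6.42 CPM, BIRC5 (survivin) from 166 ± 22.5 to 38.7 ± 15.3 CPM and AURKA, a spindle kinase, from 61.8 ± 8.4 to 15.1 ± 6.32 CPM. CDK1, the mitotic kinase, fell from 91.7 ± 11.4 to 25.8 ± 11.7 CPM and was lower in replicates 3,4 of S1D4 than in 1,2, at 36.6, 35.2, 16.6 and 14.9 CPM. The fall of mitosis genes had a median of -1.38 in replicates 1,2 and -2.11 in replicates 3,4, and for none of the 30 genes did the difference between pairs pass the test.

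Among replication genes, RRM2 and TK1, which supply deoxynucleotides, fell from 118 ± 13.1 to 26.3 ± 10.5 CPM and from 93.001 ± 18.1 to 22.1 ± 7.81 CPM. TYMS, thymidylate synthase, was at 217, 195, 188 and 148 CPM before and 71.2, 67.7, 36.7 and 38.8 CPM in S1D4 (log2 fold change -1.80 ± 0.20, adjusted p 3.29e-06). CDC6, which loads the replicative helicase, fell from 57.1 ± 4.97 to 16.4 ± 2.85 CPM and PCNA, the sliding clamp, from 179.7 ± 35.8 to 66.02 ± 17.2 CPM. The MCM helicase subunits fell less, for example MCM3 by 0.58 and MCM7 by 0.55 on the log2 scale. Replication-dependent histone genes, a family listed after the values were seen, gave 23 lower and 0 higher of 42 tested. HIST1H1C, a linker histone, fell from 78.3 ± 21.9 to 11.2 ± 4.87 CPM, and histone genes share near-identical sequences that counting can split. Without untreated replicate 4, 2 histone genes were called higher.

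The promoters of CDC20 and TYMS are shown as the members with the largest falls that hold the motif of their list. Mitotic genes are known for the cell cycle homology region (CHR, TTTGAA) and replication genes for E2F sites (searched as TTTCCCGC). CDC20 is given for 200 bases before its start (GRCh38.p14, chr1:43358781-43358980, plus strand), with 2 CHR matches in capitals that begin 178 and 65 bases before the start and do not overlap its CCAAT boxes. TYMS is given for 150 bases (chr18:657503-657652, plus strand), with the E2F match, on the opposite strand, 39 bases before the start.
CDC20: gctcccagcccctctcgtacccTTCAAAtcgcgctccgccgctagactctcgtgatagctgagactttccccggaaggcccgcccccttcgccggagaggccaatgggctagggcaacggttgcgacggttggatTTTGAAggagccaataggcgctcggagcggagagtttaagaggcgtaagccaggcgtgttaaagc
TYMS: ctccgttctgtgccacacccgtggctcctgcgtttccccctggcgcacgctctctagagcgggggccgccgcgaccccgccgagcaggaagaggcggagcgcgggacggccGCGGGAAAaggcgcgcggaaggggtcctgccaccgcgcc
A CHR match was present in 18 of 25 mitosis promoters (72.0%) against 9.95% of all 11247 and 19.2% of those of genes lower by at least 2-fold. An E2F match was present in 10 of 26 replication promoters (38.5%) against 2.45% of all.

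Regulators of G1 moved in both directions, with 14 of 24 lower and 3 higher. The 3 were inhibitors of cyclin-dependent kinases. CDKN1A, p21, was at 14.3, 14.7, 12.3 and 10.2 CPM in untreated cells and 146, 153, 123 and 123 CPM in S1D4, an even rise over the replicates (log2 fold change 3.40 ± 0.13, adjusted p 5.71e-11). CDKN2B, p15, rose from 3.47 ± 1.53 to 16.7 ± 4.87 CPM, more in replicates 3,4 (log2 fold change 3.26) than in 1,2 (1.44, adjusted p of the difference 0.0312). CDKN1C, p57, rose from 5.03 ± 0.487 to 7.8 ± 1.51 CPM. CDKN1B, p27, was at 79.2 ± 2.77 and 73.4 ± 2.61 CPM and did not pass the test (adjusted p 0.287). E2F8, a late E2F repressor, fell by 1.50 on the log2 scale, cyclin E2 (CCNE2) by 1.39, E2F1 by 1.31 and SKP2, which marks p27 for destruction, by 1.30. Cyclin D1 (CCND1) fell from 212 ± 18.9 to 142 ± 10.6 CPM.

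Transcripts of the kinases that PP121 inhibits showed no common direction. Of 16 tested, 2 were higher and 5 lower. PIK3CD, a catalytic PI3K subunit, rose from 2.34 ± 0.48 to 4.83 ± 1.03 CPM and ABL1 from 159 ± 7.28 to 204 ± 7.55 CPM. FLT1, VEGF receptor 1, fell from 12.3 ± 2.09 to 4.87 ± 2.07 CPM, EPHB4, an ephrin receptor, from 35.2 ± 4.37 to 18.02 ± 2.64 CPM, and LYN, a SRC-family kinase, from 22.6 ± 2.36 to 13.2 ± 1.52 CPM. PRKDC, the DNA-dependent protein kinase, fell from 506 ± 175 to 310.1 ± 40.7 CPM, with untreated replicate 4 at 436, 462, 365 and 761 CPM in the order of replicates standing above the others. RET, the receptor for GDNF-family ligands, was at 589 ± 119 and 665 ± 105 CPM (adjusted p 0.78). Without untreated replicate 4, 4 of the 16 were higher and 3 lower, and PRKDC no longer passed (adjusted p 0.0602). ABL1 did not pass once trends with GC content and length were removed (adjusted p 0.108).

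Genes of the ERK route rose together. Of 24 feedback and immediate early genes, 19 were higher and 0 lower, against 17.6% of all genes higher, with a median log2 fold change of 1.08. DUSP6, a phosphatase that acts on ERK, was at 142, 149, 139 and 137 CPM in untreated cells and 485, 464, 611 and 616 CPM in S1D4 (log2 fold change 1.94 ± 0.15, adjusted p 8.73e-08). DUSP5, its nuclear relative, rose from 21.9 ± 6.37 to 118 ± 27.9 CPM. EGR1, a zinc-finger immediate early factor, was at 29.8, 32.6, 18.4 and 18.4 CPM and then 84.8, 83.7, 197 and 191 CPM (log2 fold change 2.49 ± 0.30, adjusted p 9.71e-06). The rise of EGR1 was smaller in replicates 1,2 (log2 fold change 1.44) than in replicates 3,4 (3.42), and this difference passed the test (adjusted p 0.00244). EGR2 was near the detection floor in untreated cells and at 1.52 ± 0.381 CPM in S1D4, at least 13.1-fold higher, with the floor set at 3 counts per library. SPRY4, a Sprouty gene, rose from 129 ± 25.2 to 285 ± 69.2 CPM. The 5 genes that did not pass the test were 2 further Sprouty genes, SPRY1 (log2 fold change 0.17) and SPRY2 (0.10), and the ETS factors ETV1 (-0.14), ETV4 (0.23) and ETV5 (0.03).

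FOXO targets and PI3K feedback genes were higher for 10 of 24 and lower for 1. IRS2, an adaptor of the insulin receptor, was at 30.8, 33.5, 27.5 and 49.03 CPM and then 133, 132, 170.2 and 161 CPM (log2 fold change 2.08 ± 0.17, adjusted p 2.63e-07). BCL6, a repressor, rose from 3.93 ± 0.594 to 13.4 ± 0.608 CPM, FBXO32, a ubiquitin ligase of muscle wasting, from 7.12 ± 1.14 to 21.5 ± 0.937 CPM, and FOXO1 itself from 8.13 ± 1.12 to 21.7 ± 1.87 CPM. For none of these 4 did the difference between replicate pairs pass the test, and IRS2 rose by 2.05 and 2.14 on the log2 scale in the pairs. SESN3, a sestrin and another FOXO target, fell from 22.5 ± 9.79 to 9.31 ± 2.22 CPM. In the growth factor axis, IGF2, a ligand of the IGF1 and insulin receptors, was at 3814, 5029.8, 3556 and 4184 CPM and then 14585, 15700.4, 17401 and 17126 CPM (log2 fold change 1.97 ± 0.13, adjusted p 2.06e-08). STC1, a secreted inhibitor of the IGFBP protease PAPPA, rose from 3.18 ± 1.34 to 54.4 ± 12.4 CPM, and PAPPA rose from 3.57 ± 1.21 to 8.87 ± 3.3 CPM. IGFBP4, the binding protein that PAPPA cleaves, fell from 183 ± 34.8 to 28.2 ± 1.51 CPM (log2 fold change -2.70 ± 0.33, adjusted p 1.06e-05). Over the axis, 5 of 15 genes were higher and 2 lower, and the receptor IGF1R was at 176 ± 30.7 and 169 ± 10.6 CPM (adjusted p 0.739). Without untreated replicate 1, 2 or 3 in turn, 3 of the 15 were higher, and without untreated replicate 3 2 genes of the FOXO list were lower.

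**Figure D2:**
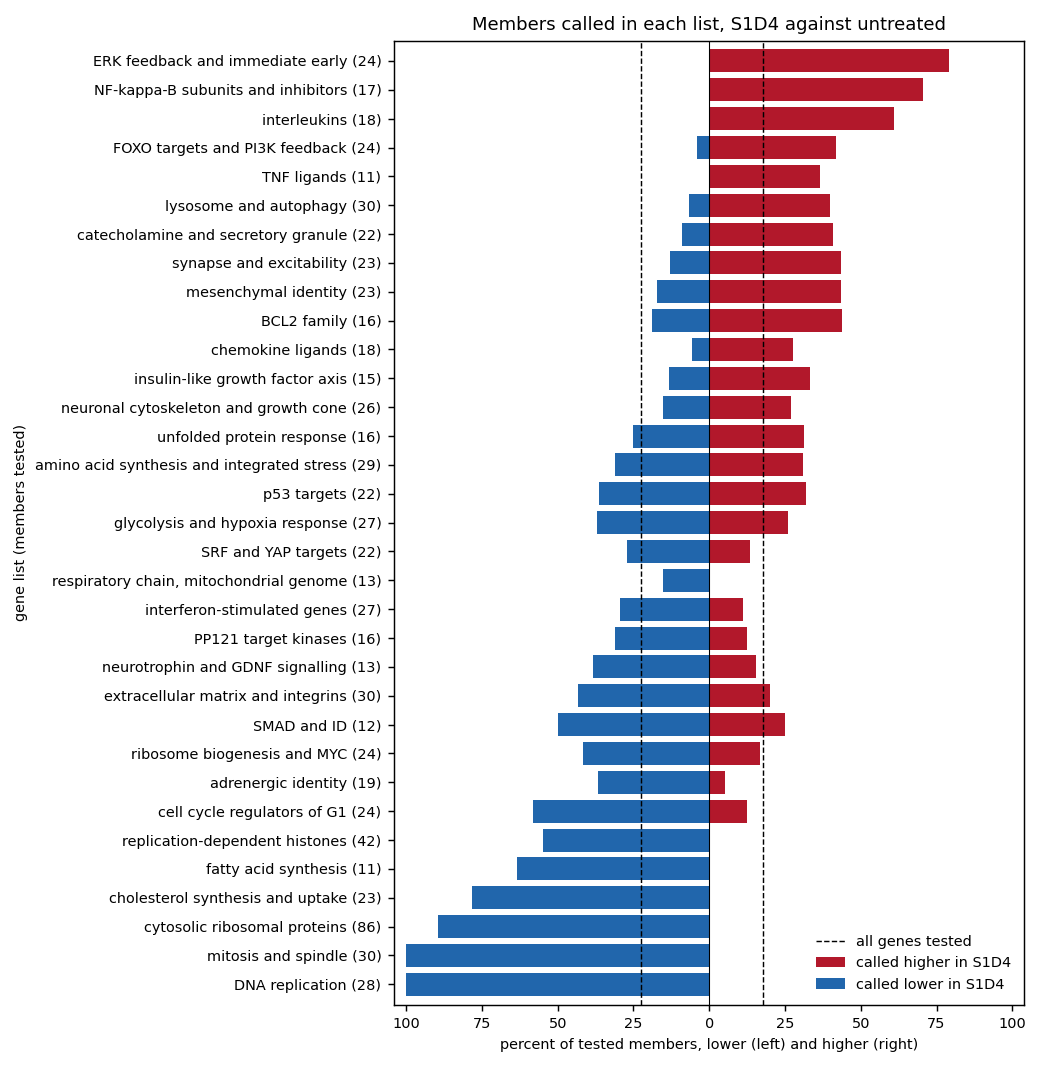
Percent of the tested members of each gene list that were called higher (right) or lower (left) in S1D4 at an adjusted p under 0.05, with the number of tested members beside each name. Dashed lines mark the same percentages over all 15810 genes (17.6% and 22.4%). Mitosis and DNA replication reach 100% lower, and ERK feedback 79.2% higher.

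Most lipid synthesis genes were lower. Of 23 genes of cholesterol synthesis and uptake, 18 were lower (78.3%) and 0 higher, and of 11 genes of fatty acid synthesis 7 were lower (63.6%) and 0 higher, against 22.4% of all genes lower. INSIG1, which retains the sterol sensor SCAP in the endoplasmic reticulum, fell from 38.6 ± 6.44 to 13.9 ± 3.14 CPM (log2 fold change -1.48 ± 0.18, adjusted p 1.21e-05). STARD4, a sterol carrier, fell from 92.8 ± 14.6 to 42.5 ± 4.52 CPM, and FDPS, farnesyl diphosphate synthase, from 235 ± 53.9 to 119 ± 19.7 CPM. FADS2, a fatty acid desaturase, fell from 472 ± 42.002 to 229 ± 32.4 CPM and SREBF1, the lipogenic regulator, from 92.6 ± 21.6 to 50.8 ± 8.14 CPM. Within replicates 3,4 alone 12 of the 23 cholesterol genes were called lower, and within replicates 1,2 alone 21. Their median log2 fold change was alike in the pairs, at -0.62 in replicates 3,4 and -0.61 in replicates 1,2. Fewer of all genes were called in replicates 3,4 (22.9%) than in replicates 1,2 (43.7%).

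Genes of amino acid synthesis and the integrated stress response moved both ways, with 9 of 29 higher and 9 lower. PHGDH, which starts serine synthesis, was at 61.1, 55.2, 54.9 and 40.7 CPM and then 16.7, 17.5, 5.18 and 4.29 CPM (log2 fold change -2.28 ± 0.38, adjusted p 0.000176). PSAT1, the next enzyme, fell from 45.6 ± 2.91 to 16.3 ± 4.78 CPM, and MTHFD2, of mitochondrial folate metabolism, from 88.05 ± 3.96 to 44.6 ± 13.5 CPM. SLC7A1 and SLC7A5, transporters of cationic and of large neutral amino acids, rose from 76.6 ± 14.04 to 145 ± 21.2 CPM and from 46.3 ± 5.04 to 82.1 ± 4.36 CPM. TRIB3, a stress-induced pseudokinase, rose from 39.1 ± 7.86 to 87.5 ± 13.9 CPM, whereas DDIT4, a stress-induced inhibitor of mTOR complex 1, fell from 44.7 ± 1.82 to 19.6 ± 2.06 CPM. The unfolded protein response gave 5 higher and 4 lower of 16, led by the co-chaperone DNAJB9 (from 14.6 ± 1.95 to 28.5 ± 3.55 CPM) and by MANF, a secreted chaperone (from 30.6 ± 3.18 to 19.9 ± 2.49 CPM). The 4 lower genes of that response came to 1 or 2 when untreated replicate 1, 2 or 3 or S1D4 replicate 3 or 4 was left out, and in these 5 fits MANF did not pass (adjusted p 0.0565 to 0.0958).

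Glycolysis and hypoxia genes were mixed, with 7 of 27 higher and 10 lower. NDRG1, a hypoxia-induced stress gene, was at 7.22, 6.72, 7.28 and 7.31 CPM and then 27.9, 23.7, 44.6 and 43.2 CPM (log2 fold change 2.29 ± 0.16, adjusted p 4.30e-08). SLC2A3, a glucose transporter, rose from 6.85 ± 0.743 to 28.8 ± 4.66 CPM and VEGFA from 57.04 ± 8.03 to 125 ± 13.5 CPM. EGLN3, a prolyl hydroxylase that is itself a hypoxia target, fell from 49.4 ± 13.1 to 14.3 ± 2.57 CPM, and LDHA, lactate dehydrogenase, from 471 ± 102 to 243 ± 30.7 CPM. ALDOC, an aldolase, fell by 1.67 on the log2 scale. Without untreated replicate 1, 6 genes of the list were lower.

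Genes of ribosome biogenesis and the MYC network were lower for 10 of 24 and higher for 4. FBL, fibrillarin of the nucleolus, fell from 145 ± 26.5 to 71.4 ± 5.53 CPM and NPM1, nucleophosmin, from 661 ± 111 to 361 ± 18.3 CPM. MYCN, amplified in many neuroblastomas, was low in this line and rose from 1.19, 2.01, 0.866 and 1.46 CPM to 7.05, 8.97, 8.17 and 6.69 CPM (log2 fold change 2.48 ± 0.31, adjusted p 1.05e-05). MYC was at 75.7 ± 9.79 and 67.1 ± 11.97 CPM (adjusted p 0.257), and MXD1, a MAX partner that opposes MYC, rose from 8.82 ± 1.02 to 16.5 ± 3.26 CPM. Of 86 cytosolic ribosomal protein genes tested, a family listed after the values were seen, 77 were lower and 0 higher, with a median log2 fold change of -0.57. RPS12, for example, was at 278, 259.9, 262 and 164 CPM and then 144, 133, 109.5 and 116 CPM. In replicates 3,4 alone 8 of the 86 were called lower, and in replicates 1,2 alone 77. The median log2 fold change was nonetheless similar, at -0.51 in replicates 3,4 and -0.60 in replicates 1,2. For 0 of the 86 did the difference between pairs pass the test. The S1D4 and untreated libraries did not overlap for 40 of the 86, beside 37.9% of all genes. Untreated replicate 4 had the lowest share of ribosomal protein counts among untreated libraries (4.49%, the others 5.47% to 6.62%, S1D4 3.82% to 4.49%), and without that library 82 of the 86 were called lower.

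Lysosome and autophagy genes were higher for 12 of 30 and lower for 2. CTSB, cathepsin B, rose from 182 ± 27.99 to 402 ± 16.8 CPM and TFEB, the transcription factor of lysosome genes, from 7.02 ± 0.819 to 17.8 ± 2.3 CPM. SQSTM1, the autophagy receptor p62, rose from 296 ± 41.2 to 513 ± 16.2 CPM. GLA, alpha-galactosidase A, fell from 18.3 ± 4.16 to 11.04 ± 1.24 CPM. The E-box CACGTG, the core of the sequence TFEB binds, was present in 7 of 20 promoters of this list (35.0%) against 9.80% of all. These 7 were LAMP1, CTSA, CTSD, GAA, NEU1, MCOLN1 and ATP6V0D1. GLA had a promoter entry and no E-box match. CTSB, TFEB and SQSTM1 were not among the 7 either. Only 20 of the 30 genes had a promoter entry, so this need not mean that those promoters were searched. Among all genes called higher the share was 9.21%. SQSTM1 did not pass when untreated replicate 3 or 4 or S1D4 replicate 1, 2 or 4 was left out (adjusted p 0.0507 to 0.0638). GLA was the only lower gene of the list in 7 of the 8 fits that left out 1 library.

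Genes of catecholamine handling and dense-core granules were higher for 9 of 22 and lower for 2, with a median log2 fold change of 0.44. Apart from TH and VGF, SLC18A1, a vesicular monoamine transporter, rose from 0.982 ± 0.359 to 5.14 ± 0.479 CPM, and PCSK1, a prohormone convertase, from 0.224 ± 0.184 to 1.2 ± 0.286 CPM. SCG2, secretogranin II, was at 364, 311, 403 and 336 CPM and then 636, 563, 775 and 768 CPM (log2 fold change 0.96 ± 0.12, adjusted p 8.41e-06). CYB561, which passes electrons into granules for the enzyme DBH, rose from 148 ± 3.11 to 277 ± 21.5 CPM. DBH itself, dopamine beta-hydroxylase, which makes noradrenaline, fell from 62.5, 61.1, 106 and 94.7 CPM to 15.02, 13.9, 16.6 and 15.7 CPM (log2 fold change -2.40 ± 0.57, adjusted p 0.00303). MAOA, which degrades monoamines, fell from 47.6 ± 9.9 to 15.2 ± 0.237 CPM, with S1D4 values of 15.4, 15.3, 15.4 and 14.9 CPM. The enzymes at the head and at the end of noradrenaline synthesis thus moved in opposite directions, in each pair of replicates. CHGA, chromogranin A, did not pass the test (adjusted p 0.89). It was at 3465, 3182, 8647 and 6919.5 CPM and 4061, 4076, 6359 and 5953 CPM, higher in replicates 3 and 4 of both groups.

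Adrenergic identity genes, most of them transcription factors, were lower for 7 of 19 and higher for 1. HAND1 fell from 27.3 ± 4.81 to 3.96 ± 0.739 CPM (log2 fold change -2.78 ± 0.27, adjusted p 1.36e-06), TBX2 from 491 ± 42.9 to 256 ± 9.56 CPM and SOX11 from 288 ± 13.96 to 152 ± 16.96 CPM. TFAP2B, AP-2 beta of the neural crest and its sympathetic derivatives, rose from 38.4 ± 5.26 to 80.01 ± 6.52 CPM. Mesenchymal identity genes were higher for 10 of 23 and lower for 4. PRRX1, a homeobox factor of mesenchymal neuroblastoma, was at 29.4, 24.96, 25.2 and 27.3 CPM and then 139.5, 131, 142 and 143 CPM (log2 fold change 2.38 ± 0.18, adjusted p 6.32e-08), and SOX9 at 28.7, 28.4, 28.2 and 29.1 and then 84.5, 79.05, 72.2 and 67.6 CPM. FOSL2, an AP-1 subunit, rose from 19.8 ± 2.51 to 76.04 ± 10.8 CPM and the surface receptor CD44 from 9.32 ± 3.65 to 28.6 ± 3.9 CPM. The 4 lower genes were factors of epithelial-mesenchymal transition and YAP signalling. SNAI1 fell from 24.1 ± 5.34 to 4.35 ± 0.459 CPM, SNAI2 from 4.62 ± 1.53 to 1.43 ± 0.218 CPM, TWIST1 from 115 ± 9.87 to 61.5 ± 4.18 CPM and YAP1 from 45.5 ± 6.73 to 29.3 ± 2.16 CPM.

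Neuronal structure genes were mixed. Of 26 genes of the cytoskeleton and growth cone, 7 were higher and 4 lower. L1CAM, an axonal adhesion molecule, was at 143, 161, 106 and 123 CPM and then 407, 422, 309.7 and 313 CPM (log2 fold change 1.45 ± 0.17, adjusted p 5.72e-06). GAP43, of growth cones, rose from 5.03 ± 1.17 to 14.4 ± 6.26 CPM and STMN4, a stathmin, from 4.37 ± 1.61 to 11.2 ± 5.04 CPM, both higher in replicates 1 and 2 of S1D4. DPYSL3, a collapsin response mediator, fell from 848 ± 60.7 to 528 ± 26.8 CPM and NCAM1 from 67.8 ± 12.7 to 45.6 ± 3.8 CPM, and TUBB3, the neuronal tubulin, was at 213 ± 39.004 and 231 ± 8.37 CPM (adjusted p 0.527). Of 23 synapse and excitability genes 10 were higher and 3 lower. SYP, synaptophysin of synaptic vesicles, rose from 32.2 ± 6.75 to 71.9 ± 6.13 CPM, DLG4, the postsynaptic scaffold PSD-95, from 24.9 ± 2.94 to 54.2 ± 1.34 CPM, and SYN1, a synapsin, from 4.97 ± 0.856 to 11.2 ± 3.34 CPM. KCNH2, the ERG potassium channel, fell from 134, 131, 122 and 114 CPM to 47.03, 50.5, 47.9 and 46.05 CPM.

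Ligands and receptors of the neurotrophin and GDNF families gave 2 higher and 5 lower of 13. GDNF, the ligand that RET receives with GFRA1, rose from 5.7 ± 1.12 to 20.7 ± 2.6 CPM, and NGFR, the p75 receptor, was at 24.9, 29.9, 54.5 and 55.8 CPM and then 96.8, 91.1, 131 and 124 CPM (log2 fold change 1.43 ± 0.48, adjusted p 0.025). BDNF, a neurotrophin, fell from 5.87 ± 0.619 to 3.13 ± 1.1 CPM. The calls of NGFR and BDNF depended on single libraries. NGFR did not pass without untreated replicate 1 or 2 or S1D4 replicate 3 or 4 (adjusted p 0.0544 to 0.0714), and BDNF without untreated replicate 3 or S1D4 replicate 3 or 4 (0.0571 to 0.0771).

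The extracellular matrix list had 13 of 30 genes lower and 6 higher, and the chains of 1 collagen diverged. Of collagen VI, COL6A1 rose from 269 ± 23.9 to 740.5 ± 92.9 CPM and COL6A2 from 403 ± 55.3 to 1361 ± 207 CPM, while COL6A3 was at 14.2, 15.7, 7.08 and 10.3 CPM and then 1.63, 1.62, 1.14 and 1.66 CPM (log2 fold change -2.96 ± 0.28, adjusted p 8.44e-07). COL1A1, of collagen I, fell from 581, 622, 582 and 550.1 CPM to 81.9, 90.5, 112 and 100.5 CPM (log2 fold change -2.60 ± 0.18, adjusted p 3.50e-08). COL3A1 was at 1053 ± 136 and 1119 ± 35.4 CPM (adjusted p 0.592). POSTN, periostin, fell from 5.71 ± 3.55 to 1.004 ± 0.298 CPM. TNC, tenascin C, rose from 20.8 ± 2.71 to 58.8 ± 21.9 CPM, at 76.1, 79.1, 42.4 and 37.6 CPM in S1D4. The rise of TNC did not pass when any 1 of the 4 untreated libraries, or S1D4 replicate 1 or 2, was left out (adjusted p 0.0542 to 0.0969), nor with the replicate number as a block (0.0743). Targets of SRF and YAP gave 3 higher and 6 lower of 22 (13.6% and 27.3%), near the 17.6% and 22.4% of all genes. Without untreated replicate 2, 5 were higher. THBS1, thrombospondin 1, rose from 40.97 ± 19.3 to 188 ± 53.5 CPM, by 1.31 on the log2 scale in replicates 1,2 and by 3.29 in replicates 3,4 (adjusted p of the difference 0.00434). ANKRD1, a YAP target, was at 12.2, 8.45, 0.713 and 0.411 CPM in untreated cells, mostly in replicates 1 and 2, and at 0.25, 0.343, 0 and 0.0461 CPM in S1D4.

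SMAD and ID genes, listed after the values were seen, were lower for 6 of 12 and higher for 3. The inhibitory SMADs, which BMP and TGF-beta signals induce, fell, SMAD6 from 25.2 ± 7.18 to 4.08 ± 0.628 CPM and SMAD7 from 14.9 ± 0.481 to 3.36 ± 0.849 CPM. ID1 fell from 82.8 ± 39.4 to 17.8 ± 3.8 CPM and ID3 from 88.4 ± 28.1 to 36.9 ± 2.98 CPM, both BMP targets, whereas ID4 rose from 1.12 ± 0.407 to 7.87 ± 1.998 CPM. The signal transducers SMAD1 and SMAD3 rose, SMAD1 from 45.6, 41.4, 41.1 and 42.5 CPM to 123, 120.2, 126 and 119 CPM (log2 fold change 1.52 ± 0.08, adjusted p 1.62e-09). SMAD3 rose from 57.04 ± 5.32 to 161 ± 17.9 CPM.

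Several cytokine genes rose from low levels. The families of chemokine ligands, interleukins, TNF ligands and NF-kappa-B subunits and inhibitors were written from the symbols of the table after the values were seen, so their counts are a description. Of 18 interleukin genes tested 11 were higher and 0 lower, of 18 chemokine ligands 5 higher and 1 lower, of 11 TNF ligands 4 higher and 0 lower, and of 17 NF-kappa-B subunits and inhibitors 12 higher and 0 lower. Without untreated replicate 4, or without S1D4 replicate 4, 1 interleukin was called lower. Of the 46 listed chemokine ligands, 28 did not pass the filter on low counts, and the same held for 24 of 42 interleukins and 7 of 18 TNF ligands. The filter took in all 16 SK-N-AS libraries, so a gene near 0 in untreated cells could pass through a group where it was high, which favours calls of higher over lower in these families. CXCL8, which attracts neutrophils, was at 0.474, 0.233, 0.102 and 0.221 CPM in untreated cells and 41.2, 40.7, 11.7 and 12.1 CPM in S1D4 (log2 fold change 6.51 ± 0.57, adjusted p 3.94e-07). LTB, lymphotoxin beta, was at 0.105, 0.0467, 0.0509 and 0.19 CPM and then 18.2, 25.4, 5.88 and 4.2 CPM (log2 fold change 6.90 ± 0.82, adjusted p 7.51e-06). Both genes were above every untreated library in all 4 S1D4 libraries, and higher in replicates 1 and 2 than in 3 and 4.

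CCL2, which attracts monocytes, was at 26.9, 18.8, 12.7 and 6.39 CPM and then 282, 339.998, 57.6 and 54.8 CPM. IL32, an intracellular and secreted cytokine, rose from 6.11, 5.37, 1.43 and 1.39 CPM to 92.3, 111, 21.1 and 22.1 CPM. ICAM1, the leukocyte adhesion molecule, rose from 9.33, 8.54, 2.7 and 3.04 CPM to 208, 249.98, 52.1 and 49.9 CPM. In these genes too the S1D4 values of replicates 1 and 2 exceeded those of replicates 3 and 4. TNF itself was near the floor in untreated cells and at 11.7, 14.2, 2.37 and 1.34 CPM in S1D4, at least 63.5-fold higher. IL1B, by contrast, was even over S1D4 replicates at 16.8, 17.8, 12.3 and 14.3 CPM, from 0.659, 0.513, 0.0509 and 0.19 CPM (log2 fold change 5.30 ± 0.70, adjusted p 2.08e-05). IL33, a nuclear alarmin, was likewise even at 31.5, 26.2, 20.98 and 24.8 CPM, from 1.16, 1.17, 0.458 and 0.38 CPM. CXCL12, a homeostatic chemokine, fell from 4.86 ± 0.966 to 0.912 ± 0.529 CPM.

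Of the NF-kappa-B genes, RELB was at 24.01, 20.5, 17.5 and 14.2 CPM and then 102, 115, 56.98 and 49.2 CPM (log2 fold change 2.08 ± 0.28, adjusted p 2.12e-05). NFKB2, the partner of RELB in the non-canonical pathway, rose from 39.3 ± 4.24 to 139 ± 52.6 CPM, by 2.30 on the log2 scale in replicates 1,2 and by 1.23 in replicates 3,4 (adjusted p of the difference 0.0495). BIRC3, a ubiquitin ligase that restrains that pathway, rose from 1.13 ± 0.41 to 21.2 ± 13.1 CPM and TNFAIP3, the deubiquitinase A20, from 0.574 ± 0.271 to 5.45 ± 2.52 CPM. NFKBIA, I-kappa-B alpha, was at 69.4, 57.7, 69.2 and 48.5 CPM and then 187, 202, 68.04 and 70.5 CPM, so that S1D4 replicate 3 lay within the range of the untreated libraries and replicate 4 just above it. Within replicates 1,2 alone 14 of 17 genes of this family were higher, and within replicates 3,4 alone 7. The leukocyte markers fell in sum in the same libraries, as given above, and most of that sum was PTPRC. Of the 4 leukocyte markers that were tested, CD68 was called higher, PTPRC lower and 2 neither (median log2 fold change 0.65). The source of the cytokine transcripts was not tested. NFKBIA did not pass without S1D4 replicate 2 (adjusted p 0.0502).

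**Figure D3:**
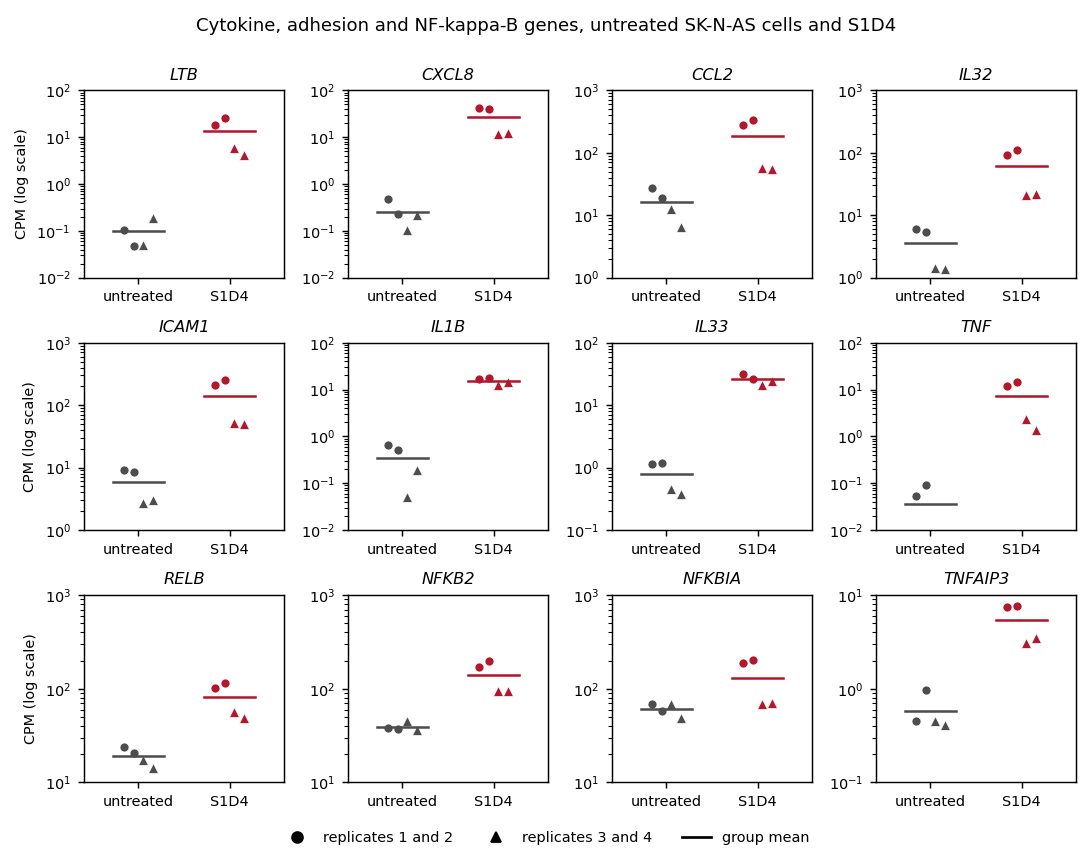
Levels of 12 cytokine, adhesion and NF-kappa-B genes in the 8 libraries, in CPM on a log axis, with 1 panel per gene. Circles are replicates 1 and 2, triangles replicates 3 and 4, and bars are group means. LTB, CXCL8, CCL2, IL32 and ICAM1 are higher in S1D4 replicates 1 and 2 than in 3 and 4, while IL1B and IL33 differ little between the S1D4 pairs. In untreated cells IL1B and IL33 are lower in replicates 3 and 4 than in 1 and 2. Untreated replicates 3 and 4 of TNF had no count and are not drawn.

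The promoters of LTB and BIRC3 are shown as the members of the TNF ligand and NF-kappa-B families with the largest rise among those that hold a match to the NF-kB consensus, a motif searched for after the values were seen. LTB is given for 150 bases before the RefSeq start on GRCh38.p14 (chr6:31582426-31582575, minus strand) and BIRC3 for 200 bases (chr11:102317284-102317483, plus strand). Capitals mark the matches, which begin 86 bases before the start in LTB and 199 and 135 bases before it in BIRC3.
LTB: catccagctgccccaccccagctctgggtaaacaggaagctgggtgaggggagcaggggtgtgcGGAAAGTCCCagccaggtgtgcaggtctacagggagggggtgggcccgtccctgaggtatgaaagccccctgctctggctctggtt
BIRC3: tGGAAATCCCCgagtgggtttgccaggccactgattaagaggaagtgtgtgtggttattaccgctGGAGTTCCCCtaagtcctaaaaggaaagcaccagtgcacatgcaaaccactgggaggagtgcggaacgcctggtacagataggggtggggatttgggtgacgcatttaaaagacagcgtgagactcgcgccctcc
A match on either strand was present in 7 of 15 promoters of the NF-kappa-B family (46.7%), in 6 of 15 interleukin promoters (40.0%), in 5 of 14 chemokine ligand promoters (35.7%), in 2 of 10 TNF ligand promoters (20.0%) and in 13.1% of all. Among the other lists the neurotrophin and GDNF list was highest, with 4 of 9 (44.4%). The AP-1 site TGACTCA was present in 7.55% of the promoters of genes higher by at least 2-fold and in 3.29% of all.

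Interferon-stimulated genes were lower for 8 of 27 and higher for 3 (29.6% and 11.1%), near the 22.4% and 17.6% of all genes. USP18, which restrains the interferon receptor, fell from 23.1, 21.4, 34.2 and 27.3 CPM to 4.76, 5.34, 5.31 and 4.84 CPM (log2 fold change -2.39 ± 0.37, adjusted p 9.17e-05), and IFI44L fell from 5.56 ± 0.658 to 0.733 ± 0.0722 CPM. STAT2, a transducer of interferon signals, rose from 48.7 ± 5.64 to 87.8 ± 9.27 CPM.

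Targets of p53 were divided, 7 of 22 higher and 8 lower, besides CDKN1A. GDF15, a stress-induced cytokine, was at 7.41, 6.81, 6.47 and 4.05 CPM and then 37.5, 33.3, 61.5 and 60.8 CPM (log2 fold change 2.97 ± 0.67, adjusted p 0.00206). BBC3 (PUMA), which promotes apoptosis, rose from 9.91 ± 1.32 to 23.3 ± 2.77 CPM and GADD45A from 57.9 ± 7.99 to 125 ± 28.1 CPM. TP53I3, a quinone oxidoreductase, fell from 75.8, 87.6, 43.4 and 34.98 CPM to 11.7, 13.4, 13.5 and 11.8 CPM (log2 fold change -2.26 ± 0.23, adjusted p 1.71e-06), and MDM2, the ligase of p53, fell from 53.02 ± 3.91 to 33.9 ± 2.24 CPM. In the BCL2 family 7 of 16 genes were higher and 3 lower, with small changes. BCL2L2 and MCL1, which protect cells, rose from 33.1 ± 4.61 to 53.5 ± 3.002 CPM and from 265 ± 20.2 to 358 ± 63.3 CPM, and BCL2 fell from 36.3 ± 6.9 to 25.2 ± 2.71 CPM. Of 13 protein genes of the mitochondrial genome 2 were lower (15.4%, against 22.4% of all genes) and 0 higher. Leaving out S1D4 replicate 3 or 4 left 1 of the 3 lower BCL2 family genes, and BCL2 (adjusted p 0.0666 and 0.0534) and MCL1 (0.0626 and 0.0586) did not pass, nor did BCL2 without untreated replicate 4 (0.0768). The count of lower mitochondrial genes ran from 0 to 5 when 1 library was left out.

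The change differed between the replicate pairs for 74 of 14805 genes (0.5%, a model of the 8 libraries alone), 47 with a more positive change in replicates 3,4 and 27 with a more negative one. Among the former, KRT80, a keratin, was at 21.2, 16.9, 5.55 and 4.68 CPM and then 14.5, 13.9, 21.2 and 22.5 CPM (log2 fold changes -0.42 in replicates 1,2 and 2.13 in replicates 3,4, adjusted p of the difference 0.00434). SOCS3, a feedback inhibitor of cytokine receptors, had log2 fold changes of 1.23 and 3.27 (adjusted p 0.00244). CYR61, a matrix protein and YAP target, had -0.03 and 2.05 (adjusted p 0.0195), and PAEP 4.66 and 6.91 (adjusted p 0.00574). For these 4 genes the untreated level was lower in replicates 3 and 4. SSTR2, a somatostatin receptor, went the other way, from 9.07, 9.47, 19.5 and 20.2 CPM to 21.7, 25.7, 5.97 and 7.52 CPM (log2 fold changes 1.36 and -1.53, adjusted p 0.00244). The count of 74 rested on the model, with 28 genes when the spread came from all SK-N-AS libraries and 438 without the filter on low counts. Of the genes described above as changed, PIK3CD, PRKDC, SLC7A1, GLA, YAP1, STMN4 and NFKBIA did not pass within replicates 3,4 alone, and PAPPA and BDNF did not within replicates 1,2 alone.

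**Figure D4:**
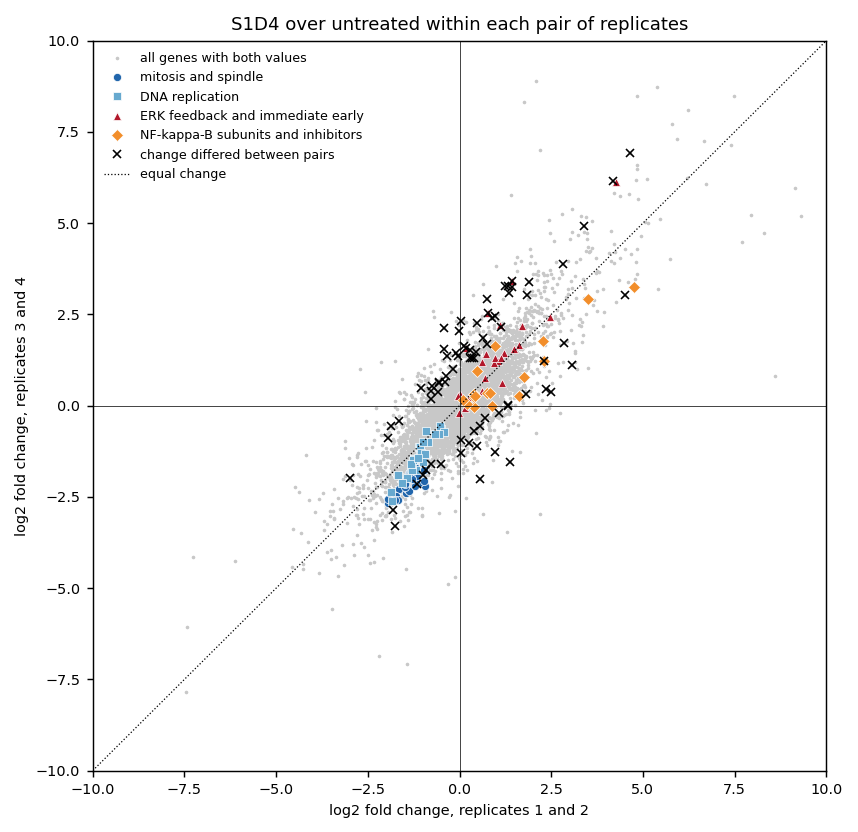
Log2 fold change of S1D4 over untreated cells within replicates 1,2 (horizontal axis) and within replicates 3,4 (vertical axis), each from 4 libraries, 1 point per gene. Grey points are all genes with both values, and colours mark mitosis, DNA replication, ERK feedback, NF-kappa-B genes and the genes whose change differed between the pairs. All mitosis and DNA replication genes lie in the lower left, below 0 on both axes.

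CILP, a cartilage matrix protein, rose in both pairs but by 4.51 and 3.03 on the log2 scale (adjusted p 0.0366). FAM65C had 1.81 and 0.33 (adjusted p 0.0452) and LRRN3, a leucine-rich repeat neuronal protein, 0.05 and -1.31 (adjusted p 0.0443). PHGDH, given above, also belonged here, with -1.77 and -3.31 (adjusted p 0.0366). A smaller set differed between the pairs in both groups alike. Among 10138 genes with a mean of at least 10 CPM, 5 were at least 2-fold higher and 15 at least 2-fold lower in replicates 3,4 than in 1,2 in both groups, and 1 differed in opposite directions. PTX3, a pentraxin of innate immunity, was at 124, 99.3, 35.1 and 26.03 CPM and 85.1, 88.7, 24.5 and 23.9 CPM, and DLK1, a Notch-related ligand, at 49.2, 39.4, 9.93 and 9.33 CPM and 38.9, 38.3, 12.95 and 14.5 CPM. BDKRB1, the bradykinin B1 receptor, was at 8.09, 6.39, 0.917 and 1.55 CPM and 28.7, 27.2, 7.95 and 6.04 CPM, and IL32 and ICAM1 were the other 2 of the 5 lowest. TRIM9, a neuronal ubiquitin ligase, was at 20.8, 23.2, 45.2 and 56.8 CPM and 25.04, 27.3, 52.7 and 54.8 CPM, and EPHA8, an ephrin receptor, at 9.3, 9.66, 21.8 and 25.2 CPM and 3.13, 3.72, 12.7 and 10.7 CPM, both higher in replicates 3 and 4. The 3 others among the 5 highest were uneven within the pairs. ZBED6 was at 3.08, 3.08, 3.72 and 38.1 CPM and 3.96, 7.35, 19.97 and 21.5 CPM, TCAF1P1 at 3.22, 4.81, 8.3 and 29.95 CPM and 10.3, 12.3, 31.5 and 29.3 CPM, and HERC3 at 5.43, 10.4, 10.3 and 36.5 CPM and 3.71, 30.4, 43.3 and 32.1 CPM, with untreated replicate 4 above untreated replicate 3 in each.

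Levels in the later stages, which added 100 nM bufalin for 4 days (S2D4) or 30 days (S2D30) and replaced the medium with a neuronal one free of serum, are given without a test for VGF, TH and ECEL1, the 3 cytokine genes among the largest rises, CDC20 and CDKN1A, a set chosen after the values were seen. VGF was at 65356 ± 3549 CPM in S2D4 and 39234 ± 2329.9 CPM in S2D30. TH was at 0.729 to 25.8 CPM in S2D4, with a mean of 7.12 CPM that was 0.905 CPM without the highest of the 4 libraries, and at 0.312 ± 0.126 CPM in S2D30, close to the untreated level. LTB was at 0.0482 to 1.03 CPM in S2D4 (mean 0.0884 CPM without the highest library) and 0.0934 ± 0.0358 CPM in S2D30. ECEL1 was at 261 ± 114 and 6.45 ± 1.27 CPM, with a mean of 204 CPM without the highest S2D4 library (431 CPM). CXCL8 was at 172 ± 56.1 and 1896 ± 156 CPM and IL1B at 209.9 ± 123 and 815 ± 131 CPM, above their S1D4 levels. The S2D4 libraries were uneven for IL1B, which ran from 26.0 to 289 CPM. CDC20 was at 15.6 ± 0.916 and 1.28 ± 0.371 CPM, and CDKN1A at 572 ± 55.8 and 370.2 ± 37.02 CPM.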

How the data were processed

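Bulk RNA-seq of 22 samples was deposited as 1 table of whole-number read counts for 35237 gene symbols, made by the authors per the file headers. The aligner, genome build, annotation and strand setting are not given in the sources used here, so reads of a gene and of an overlapping antisense gene (MYCN and MYCNOS, for example) cannot be told apart. Counts were scaled by TMM and tested with edgeR 4.0.16 (R 4.3.3, limma 3.58.1) by its quasi-likelihood test in 1 model of the 16 SK-N-AS libraries, S1D4 minus untreated. Genes passed filterByExpr with a minimum count of 10 and a minimum total of 15, and Benjamini-Hochberg adjusted p under 0.05 was called. The steps were tested on simulated data. CPM are counts relative to the TMM-scaled library total. A gene at or under 3 counts in every library of a group is at the floor, and its fold is a bound against 3 counts per library.

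The comparison, its gene lists and the rules were chosen with earlier results of these data known. Genes named were the 12 largest rises and falls (adjusted p under 0.05, a mean of at least 10 CPM in the higher group, no overlap of libraries), up to 4 rises and 4 falls and members with a defining role in each of 26 lists, the genes that differed most between the replicate pairs in both groups or in their response, and cell type markers. The 7 family lists and the NF-kB motif were chosen after the values were seen. Genes named from these families, among them CCL2, IL33 and TNF, were likewise chosen then. Older symbols matched 7 list members. The alternatives were DESeq2 1.42.0, other scalings, filters and models, a replicate block, each replicate pair alone, and each replicate left out in turn. Some genes that the rule names are not reported here.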

Additional observations from a re-analysis of the deposited data

Results flagged for a closer look

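The change in S1D4 differed between replicates 1,2 and replicates 3,4 by the test of the difference itself (edgeR quasi-likelihood test, Benjamini-Hochberg adjusted) for 14 of the genes named above. Of these 14, 10 had been named for this difference, so the count restates that choice, and over all genes 0.5% passed the test. As the log2 fold change in replicates 3,4 minus that in 1,2, it was more positive for KRT80 by 2.53, PAEP by 2.24, CYR61 by 2.06, SOCS3 by 2.03, EGR1 by 1.96, THBS1 by 1.96, CDKN2B by 1.80 and STC1 by 1.53. Adjusted p ran from 0.00244 for EGR1 and SOCS3 to 0.0495 for STC1. The same quantity was negative for SSTR2 (-2.91), PHGDH (-1.56), CILP (-1.51), FAM65C (-1.50), LRRN3 (-1.38) and NFKB2 (-1.08), with adjusted p from 0.00244 for SSTR2 to 0.0495 for NFKB2. What set the pairs apart was not tested, since the labels name no batch.

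A single library lay far from the other 3 of its group in 20 of the 382 groups of 4 looked at, and chance alone flags about 1 in 20 groups. Of these libraries 8 were untreated replicate 4, high for IGF1R (222 CPM), MCL1 (296 CPM), ETV4 (148 CPM), BCL2 (46.6 CPM), ZBED6 (38.1 CPM), HERC3 (36.5 CPM) and TNC (24.8 CPM) and low for RPS12 (164 CPM). Another 5 were untreated replicate 2, high for ANO9 (3.17 CPM), ID4 (1.73 CPM), TNFAIP3 (0.98 CPM) and TH (0.607 CPM) and low for NDRG1 (6.72 CPM). Untreated replicate 3 was low for CNTNAP2 (16.8 CPM) and FOSL2 (16.1 CPM). In S1D4, replicate 1 stood apart for NPM1 (388 CPM) and SAMD11 (0.25 CPM), replicate 2 for CD68 (27.0 CPM) and FOXO1 (18.9 CPM), and replicate 3 for COL6A3 (1.14 CPM).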

How the results depend on the processing

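Counts of genes higher and lower in S1D4 (2786 and 3546) were 2971 and 3328 with DESeq2 size factors, 3049 and 3281 with upper-quartile scaling and 3150 and 3497 by DESeq2. From replicates 3,4 alone they were 1680 and 1724, and with a change of at least 2-fold 953 and 989. Leaving out 1 library in turn gave 2323 to 3258 higher and 2936 to 3614 lower. A trend removal for GC content and length, added after seeing the data, gave 2960 and 3455 (94.4% of genes had a GC value).

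Genes whose change differed between the pairs numbered 74, 438 with no filter and 28 with all SK-N-AS libraries. A 2-fold threshold left 5 of 10 higher FOXO and PI3K genes, 2 of 18 lower cholesterol genes, 7 of 12 higher NF-kappa-B genes and 1 of 77 lower ribosomal protein genes. In replicates 3,4 alone, where 22.9% of all genes were called, 7 interleukins and 7 NF-kappa-B genes were higher and 8 ribosomal protein genes lower. The median log2 fold change of the ribosomal protein genes was -0.51 in that pair. When 1 library was left out, the DNA replication (28), mitosis (30) and ERK (19) counts did not move, and the others ran from 9 to 12 for FOXO, 16 to 19 for cholesterol, 8 to 10 for granule, 9 to 11 for interleukin, 10 to 13 for NF-kappa-B and 65 to 82 for ribosomal protein genes. The cause of these shifts was not tested.

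Of 3361 log2 fold changes of 177 named genes under the alternatives, 3302 kept their direction and their side of the threshold, 45 lost the call, 3 (all ETV4) gained one and 11 changed sign. All sign changes were of genes not called. In replicates 1,2 alone these were CHGA (0.297), IGF1R (0.146), COL3A1 (-0.0937) and SPRY2 (-0.0417), and in replicates 3,4 alone ETV5 (-0.0595). With 1 library left out, CHGA ran from -0.313 to 0.175 (0.0177 without untreated replicate 4), IGF1R from -0.105 to 0.0833, ETV1 from -0.253 to 0.0933 and ETV5 from -0.0183 to 0.109.

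With the replicate number as a block 2880 genes were higher and 3571 lower, and of the named genes TNC lost its call. The deviations of same-numbered untreated and S1D4 libraries from their group means correlated at 0.305, 0.276, 0.033 and 0.311 for numbers 1 to 4. Numbers 1, 2 and 4 correlated best with their own number and number 3 did not, so the numbers were not taken as pairs.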
